A study of Mus musculus with 12 samples.

Results

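The 29 genes described here encode the cholesterol synthesis pathway of the cell and the SREBP2 system that controls it, and all 29 were present among the 13232 genes of the table. They were chosen by name, as 7 genes of the mevalonate step, 3 of the squalene step, 8 of the steps after lanosterol, 5 of sterol uptake and trafficking, and 6 regulators. RNA levels were compared in bone marrow-derived macrophages, which are macrophages grown from mouse marrow with the growth factor M-CSF, here at 20 ng/ml. The donors were wild-type mice of the C57B6/J background, as the labels write it, that ate either a normal diet (ND) or a diet high in fat (HFD); their age and the length of feeding are not given in the sources used here. Serum was withdrawn from all cultures on day 4, and on day 7 all of them spent 1 h at 1% oxygen. Each diet had 3 libraries. The labels do not say whether these came from separate mice, so the p-values measure only the spread between these libraries, which may be technical. The cultures at normal oxygen were not analysed here, so every value below is a difference between diets under hypoxia and none is a response to hypoxia.

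Cells make cholesterol from acetyl-CoA through mevalonate, isoprenoid units, squalene and lanosterol. SREBP2 is a transcription factor held in the endoplasmic reticulum by SCAP and the INSIG proteins while sterol is plentiful. When sterol runs low it is carried to the Golgi, cut by a pair of proteases, and its free amino-terminal part enters the nucleus and switches on the pathway genes, among them its own gene and *Insig1*. Macrophages also take in large amounts of cholesterol by engulfing lipoproteins and dead cells. That cholesterol is freed in the lysosome, passed on by the NPC proteins and stored as ester by SOAT1.

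The estimated depth was 19046400 to 24491500 reads per library, and every HFD library was deeper than every ND library before the authors' scaling. All 8 macrophage markers examined were in the table. Their summed normalized signal was 345313 to 395574 in ND and 342872 to 402478 in HFD. Most of that sum was *Lyz2*, with a mean of 244444 in ND and 242339 in HFD. The log2 fold changes of the 8 ran from -0.29 (*Cd14*) to 0.16 (*Adgre1*). None of the 6 B-cell, 6 T-cell, 6 erythroid, 6 dendritic-cell or 5 adipocyte markers was in the table. The 6 neutrophil markers present of 10 listed summed to 1712 to 2455 in ND and 2109 to 3430 in HFD. The 3 stromal markers present of 6 summed to 178 to 549 in ND and 51.8 to 337 in HFD. Their log2 fold changes ran from -1.45 (*Col3a1*) to -1.04 (*Col1a2*), with overlapping diets. Among the markers, *Mmp8* and *Adgre1* were higher and *Cd14*, *Birc5* and *Kit* lower in every HFD library, which were named after their values were seen. Of all genes, 7.44% were higher and 7.07% lower in every HFD library. The neutrophil collagenase gene *Mmp8* was at 443, 462 and 452 in ND and 707, 1032 and 834 in HFD (log2 fold change 0.90, limma adjusted p 0.113). For the other neutrophil markers present the diets overlapped, with log2 fold changes from 0.11 (*Ltf*) to 0.40 (*Lcn2*). The macrophage marker *Cd14* was at 4006, 4019 and 3969 in ND and 3678, 2981 and 3188 in HFD (log2 fold change -0.29, limma adjusted p 0.281). The 6 proliferation genes summed to 8978 to 9933 in ND and 7629 to 10764 in HFD. Their single log2 fold changes ran from -0.31 (*Ccnb1*) to -0.05 (*Cdk1*). Of 5 mast-cell markers only *Kit*, a receptor that blood progenitors also carry, was present, at 226, 134 and 117 in ND and at 73.4, 72.4 and 104 in HFD. Values of single genes are given in the order of replicates 1, 2 and 3 throughout. Like many sterol genes below, *Kit* was highest in ND replicate 1 and lower in every HFD library. The part of these markers in the results was not tested.

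Of the 18 enzymes of sterol synthesis, 8 were lower in HFD at an unadjusted p under 0.05 with no overlap between the diets. Of all genes, 5.18% were lower at that p and 7.07% had every HFD value below every ND value. The share that met both was not counted. The diets of the other 10 enzymes overlapped. All 18 had a negative log2 fold change (HFD against ND), as did 51.1% of all genes, with a median of -0.27 and a range from -0.86 to -0.02, whereas the median over all 13232 genes was -0.0034. Without ND replicate 1 the values of *Lss*, *Ebp* and *Dhcr7* were positive. The largest differences were in *Idi1* and *Fdps* (each about 1.8-fold lower), *Sc5d*, *Cyp51* and *Sqle*, and they extended to the sterol-transfer gene *Stard4* and the regulators *Insig1* and *Srebf2*. *Lipa* and *Soat1*, for the release and storage of cholesterol, went the other way and were higher in every HFD library. That was 2 of the 29 genes (6.9%), against 7.44% of all genes, a share near the background. Neither separation outlasted quantile normalization. No gene of the table passed an adjusted p of 0.05 (0 of 13232, 0% called, limma with Benjamini-Hochberg adjustment), so none of these differences is a call. The members' adjusted p ran from 0.181 to 0.976.

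Counted without adjustment, 11 of the 29 genes (37.9%) had p under 0.05 in limma and were lower in HFD, against a background of 5.18% of all genes. In the other direction the count was 1 of 29, against 5.4% of all genes. For 13 of the 29 (44.8%) every HFD value lay below every ND value, which held for 7.07% of all genes. For 2 of the 29 every HFD value lay above, against 7.44%. These genes were gathered because they belong to the same pathway and are known to move together, so they are not independent observations. They were also chosen with earlier results of these data known, so a share above the background is no independent support. In bulk RNA, fewer cells that express a gene and less of its RNA per cell cannot be told apart.

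**Figure D1:**
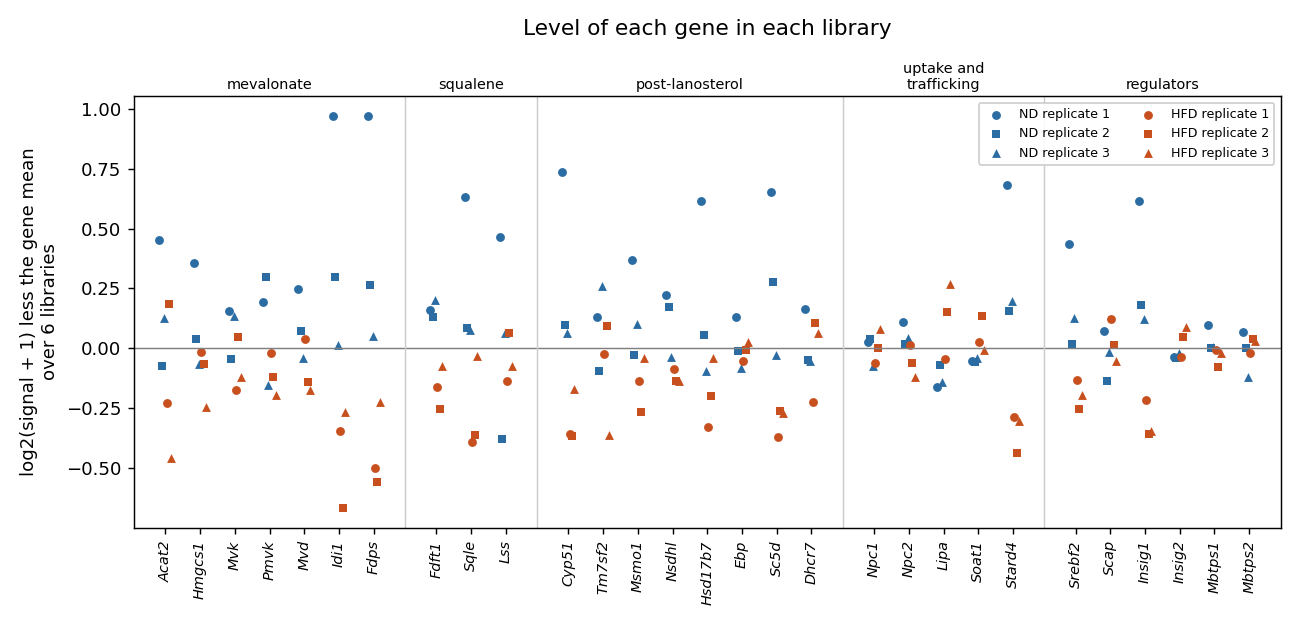
Each point is the level of 1 gene in 1 library, as log2(normalized signal + 1) less that gene's mean over the 6 libraries (vertical axis), with the genes ordered by step (horizontal axis); blue points are ND, orange points HFD, and the marker shape gives the replicate. ND replicate 1 (blue circles) is the highest library for 21 of the 29 genes. All orange points lie below all blue ones for 13 of the 29, against 7.07% of all genes. These are *Idi1*, *Fdps*, *Fdft1*, *Sqle*, *Cyp51*, *Msmo1*, *Nsdhl*, *Sc5d*, *Npc2*, *Stard4*, *Srebf2*, *Insig1* and *Mbtps1*.

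The libraries did not contribute equally. ND replicate 1 was the highest of the 6 libraries for 21 of the 29 genes and for 15 of the 18 enzymes, a place it held for 17.7% of all genes. The median level of the 18 enzymes, as log2 relative to each gene's mean, was 0.36 in ND replicate 1, against 0.06 and 0.03 for the other ND libraries and -0.17, -0.14 and -0.15 for HFD. Without ND replicate 1 the median log2 fold change of the enzymes was -0.18 and 15 of 18 remained negative. In that fit 9 members were lower at an unadjusted p under 0.05, against 2.63% of all genes, and for 13 every HFD value lay below every remaining ND value, against 9.91%. The same 9 genes (*Idi1*, *Fdps*, *Fdft1*, *Sqle*, *Cyp51*, *Sc5d*, *Stard4*, *Srebf2* and *Insig1*) kept p under 0.05 in each of the 6 fits that left out 1 library. *Msmo1* and *Nsdhl* did not. In the single fits 2.63% to 8.44% of all genes were lower at that p. The share of all genes that kept it in all 6 fits was not counted. These fits share most of their libraries, so they are no independent support.

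**Figure D2:**
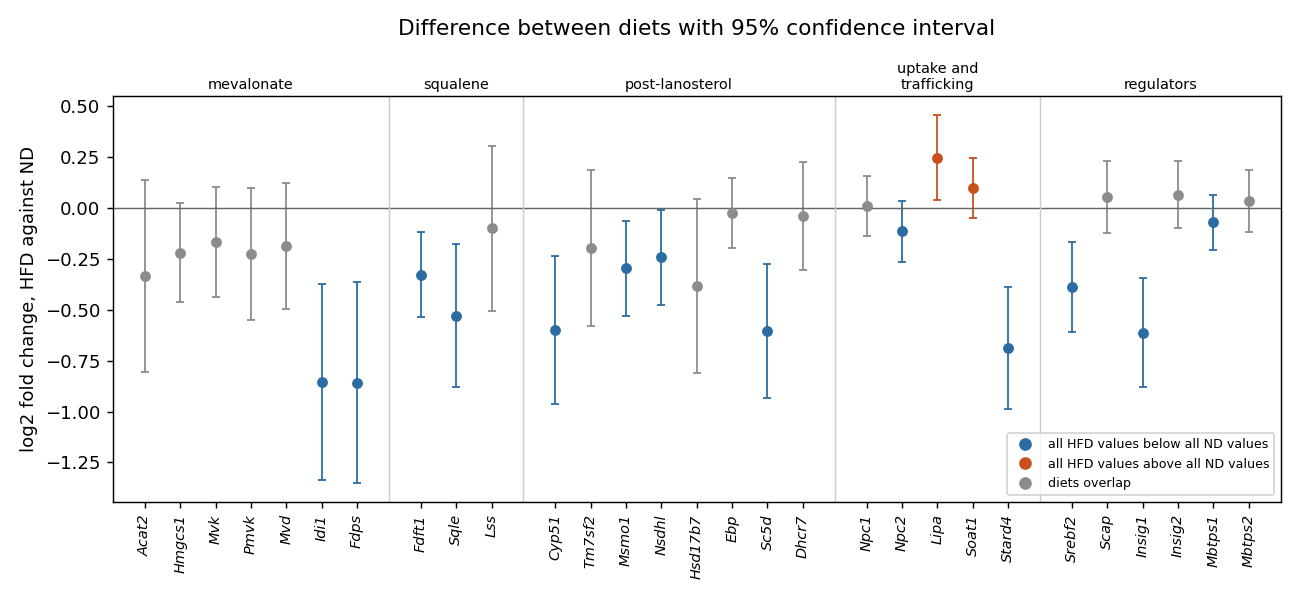
Points give the log2 fold change of each gene (HFD against ND, 3 libraries each, vertical axis) with its 95% confidence interval from limma, ordered by step; colour shows whether the values of the diets overlapped. All 18 enzyme genes lie below 0, with *Idi1* and *Fdps* lowest at -0.86, while *Lipa* (0.25) and *Soat1* (0.10) are the genes whose HFD values all lie above ND.

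SREBP proteins bind sterol regulatory elements together with NF-Y, which recognizes CCAAT boxes, and the promoters of the members were read for both motifs. The part of these motifs in the differences between diets was not tested. Windows from 250 bases before to 50 after the start were taken from RefSeq (GRCm38.p6) and were at hand for 24 of the 29 genes. Both strands were searched for TCACNCCA, a core of the sterol regulatory element in which N is any base, and for CCAAT, which reads as its reverse complement where it lies on the other strand; the letters of the motifs do not overlap each other in the stretches printed. CCAAT was in the window of 20 of 24 members (83.3%), against 37.4% of all 32851 windows and 43.2% of the 9021 genes of the table that had a window. *Acat2*, *Scap*, *Mbtps1* and *Mbtps2* were the members without it. TCACNCCA was in 3 of 24 (12.5%), *Hmgcs1*, *Msmo1* and *Srebf2*, against 4.36% of all windows. A gene with several starts was counted if any window matched. Of the 11 members lower at an unadjusted p under 0.05, 7 had a window, and all 7 held CCAAT, as did 13 of the other 17. A match is a description of letters and shows no binding.

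The stretches below, 5′ to 3′ on the gene's strand with the motifs in capitals, lie upstream of the annotated starts. *Srebf2* and *Hmgcs1* are shown because both motifs stand in them, *Insig1*, *Sc5d* and *Nsdhl* as genes lower in every HFD library, and *Insig2* as a gene with CCAAT boxes and no lower level in HFD. They lie at chr15:82147097-82147148 (*Srebf2*, plus strand), chr13:119690104-119690320 (*Hmgcs1*, plus), chr5:28071162-28071211 (*Insig1*, plus), chr9:42264310-42264359 (*Sc5d*, minus), chrX:72918402-72918515 (*Nsdhl*, plus) and chr1:121332604-121332735 (*Insig2*, minus).
Srebf2: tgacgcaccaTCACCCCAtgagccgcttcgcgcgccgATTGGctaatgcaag
Hmgcs1: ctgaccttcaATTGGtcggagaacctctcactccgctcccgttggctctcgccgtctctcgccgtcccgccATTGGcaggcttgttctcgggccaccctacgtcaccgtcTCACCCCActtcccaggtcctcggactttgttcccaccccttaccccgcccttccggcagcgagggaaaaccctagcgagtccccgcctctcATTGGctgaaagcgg
Insig1: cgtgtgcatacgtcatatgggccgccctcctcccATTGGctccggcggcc
Sc5d: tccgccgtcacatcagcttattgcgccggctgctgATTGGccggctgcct
Nsdhl: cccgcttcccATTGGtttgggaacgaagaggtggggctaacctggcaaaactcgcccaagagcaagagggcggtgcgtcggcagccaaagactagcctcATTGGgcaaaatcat
Insig2: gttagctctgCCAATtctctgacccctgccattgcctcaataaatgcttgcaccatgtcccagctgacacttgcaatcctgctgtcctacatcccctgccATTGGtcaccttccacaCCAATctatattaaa

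In the mevalonate step all 7 genes had a lower mean in HFD, and the median log2 fold change was -0.22. 2 of them, *Idi1* and *Fdps*, had p under 0.05 and no overlap. Of all genes, 5.18% were lower at that p and 7.07% were lower in every HFD library. *Idi1* (chr13:8885501-8892451) encodes the isomerase that interconverts the isoprenoid units. Its normalized signal was 535, 335 and 275 in ND and 214, 171 and 226 in HFD. The highest HFD library thus lay under the lowest ND library, and ND replicate 1 stood well above the other ND libraries. The log2 fold change was -0.86 (SE 0.22, 95% confidence interval -1.34 to -0.37, limma adjusted p 0.270), and -0.58 without ND replicate 1.

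*Fdps* (chr3:89093588-89101959), which joins these units into farnesyl pyrophosphate, the branch point towards sterols, ubiquinone and protein prenylation, had almost the same profile. It was at 260, 159 and 137 in ND and 93.1, 89.2 and 113 in HFD. The log2 fold change was -0.86 (SE 0.22, interval -1.35 to -0.36, limma adjusted p 0.275), and -0.59 without ND replicate 1. Both genes have near-identical copies whose shared reads the authors' counting could split. *Idi1* matches *Gm13502* over 684 bases at 100% identity, and *Fdps* matches *Gm3571* over 143 bases at 100%. *Fdps* also overlaps *Gm43738* on the same strand over 1124 of its 4208 exon bases, and short stretches of it match *Gm5873*, *Gm7959*, *Gm7979* and *Gm8163* at 95% identity or more; the table lists none of these 5. Neither gene's value was a whole number of estimated reads in any library. The copies were lower in HFD as well, with means (± SD, n = 3 for each diet) of 77.1 ± 28.5 and 37.2 ± 5.40 for *Gm13502* and 55.9 ± 12.8 and 28.1 ± 8.29 for *Gm3571*, ND given first.

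The other genes of the step had smaller differences with overlapping diets. *Hmgcs1*, the synthase that makes HMG-CoA, was at 1656, 1332 and 1236 in ND and 1280.1, 1239 and 1092 in HFD. HFD replicates 1 and 2 thus lay beside ND replicate 3, and the log2 fold change of -0.22 (interval -0.46 to 0.03) was -0.10 without ND replicate 1. The kinases *Mvk* (-0.17) and *Pmvk* (-0.22) and the decarboxylase *Mvd* (-0.18), which turn mevalonate into the first isoprenoid unit, had intervals from -0.55 at the lowest to 0.12 at the highest. *Pmvk* was -0.13 with ND replicate 2 left out and -0.36 with ND replicate 3 left out. *Mvd* was -0.11 with ND replicate 1 left out. They were also weakly expressed, with as few as 91.0 estimated reads in a library (*Mvd*), where counting error alone is 10.5% of the value.

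*Acat2*, the thiolase that starts the pathway, needs its copy beside it. It was at 107, 73.8 and 85.2 in ND and 66.2, 88.7 and 56.4 in HFD, a log2 fold change of -0.34 (interval -0.81 to 0.14, limma adjusted p 0.623) that was between -0.51 (HFD replicate 2 left out) and -0.19 (HFD replicate 3 left out). *Acat3*, 97.7% identical over 1477 bases, went the other way, at 62.3, 58.6 and 72.3 in ND and 81.7, 87.2 and 93.2 in HFD, with no overlap (log2 fold change 0.44, limma adjusted p 0.380). The sum of both was 153 ± 18.8 for ND and 158 ± 15.7 for HFD (mean ± SD, n = 3 for each diet), so the lower mean of *Acat2* is not seen in the sum, and how reads were divided between them is uncertain.

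At the squalene step *Sqle* and *Fdft1* were lower in every HFD library, as were 7.07% of all genes, and *Lss* was not. *Sqle*, squalene epoxidase, a rate-limiting oxygen-requiring enzyme, was at 831, 567 and 564 in ND and 407, 416 and 523 in HFD. Here HFD replicate 3 came near ND replicates 2 and 3, and the log2 fold change was -0.53 (SE 0.16, interval -0.88 to -0.18, limma adjusted p 0.301). It was -0.34 without ND replicate 1. *Fdft1*, squalene synthase, the first enzyme committed to sterols, was at 286, 279 and 294 in ND and 228, 214 and 242 in HFD. Its ND libraries were close together, and ND replicate 1 did not stand apart. The log2 fold change was therefore steady, -0.33 with all libraries (SE 0.09, interval -0.54 to -0.12, limma adjusted p 0.286) and -0.37 to -0.28 without any 1 of them. Exons of *Fdft1* overlap the cathepsin B gene *Ctsb* on the opposite strand over 774 bases, and *Fdft1* values were not whole reads; *Ctsb* itself was at 252830.0 ± 15089 for ND and 255019 ± 9153 for HFD (mean ± SD, n = 3 for each diet). *Fdft1* also matches *Gm6781*, which the table does not list, over 1249 bases at 97.4% identity. The library kit keeps strand, but whether counting used it is not given in the sources used here.

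*Lss*, which closes the ring to form lanosterol, was at 386, 215 and 293 in ND and 255, 292 and 266 in HFD. Its lowest and highest values were both ND libraries, and the log2 fold change of -0.10 (interval -0.51 to 0.31) turned to 0.11 without ND replicate 1.

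After lanosterol, 8 enzymes trim and reshape the ring, and 4 of them had p under 0.05 with no overlap. Of all genes, 5.18% were lower at that p and 7.07% were lower in every HFD library. *Cyp51*, the oxygen-dependent lanosterol demethylase, was at 826, 530.1 and 517 in ND and 385, 384 and 439 in HFD (log2 fold change -0.60, SE 0.16, interval -0.96 to -0.23, limma adjusted p 0.282). *Sc5d*, a late sterol desaturase, was at 712, 548 and 444 in ND and 349, 377 and 374 in HFD. The HFD libraries of *Sc5d* were close together under a wide ND range, with a log2 fold change of -0.60 (SE 0.15, interval -0.93 to -0.27, limma adjusted p 0.260). Without ND replicate 1 the values were -0.38 for *Cyp51* and -0.43 for *Sc5d*. Exons of *Cyp51* share 166 bases with *Akap9* on the opposite strand, and its values were not whole reads. Exons of *Hmgcs1*, *Idi1*, *Lss*, *Npc1* and *Scap* also share bases with genes on the opposite strand.

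*Msmo1*, the sterol methyl oxidase that works after *Cyp51*, was at 1375, 1043 and 1142 in ND and 967, 885 and 1034 in HFD. ND replicate 2 and HFD replicate 3 nearly met, the log2 fold change was -0.30 (interval -0.53 to -0.06, limma adjusted p 0.367), and it was -0.18 without ND replicate 1. Short stretches of its exons match those of many other genes at 95% identity or more, so its values are uncertain. *Nsdhl*, the dehydrogenase of the same demethylation complex, was at 260.4, 251 and 217 in ND and 209, 203 and 203 in HFD (log2 fold change -0.24, interval -0.47 to -0.01, limma adjusted p 0.454). *Hsd17b7*, the keto-reductase of that complex, reached -0.38 but overlapped (interval -0.81 to 0.05), and was -0.17 without ND replicate 1.

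The other genes of the arm had overlapping diets. *Ebp*, the isomerase that moves the ring double bond, was at 774, 703 and 669.6 in ND and 682, 704 and 720.1 in HFD. *Dhcr7*, the last reductase of a main branch, was at 269, 233 and 231 in ND and 206, 259 and 252 in HFD. Their log2 fold changes were -0.02 (interval -0.20 to 0.15) and -0.04 (interval -0.31 to 0.23), and both were 0.03 without ND replicate 1. *Tm7sf2*, a sterol reductase that shares its role with *Lbr*, had -0.20 (interval -0.58 to 0.19), or -0.06 without HFD replicate 3, and the lowest ND mean per length of all 29 genes. Exons of *Tm7sf2* overlap *Vps51* on the same strand over 532 bases, and its values were not whole reads.

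Uptake and trafficking genes divided. *Stard4* (chr18:33199355-33213862), a soluble carrier that moves cholesterol between membranes and is itself an SREBP2 target, had the smallest adjusted p of the 29 genes. It was at 764, 530.0 and 546 in ND and 390, 351 and 385 in HFD, so that even the lowest ND library was well above the highest HFD library. The log2 fold change was -0.69 (SE 0.13, interval -0.99 to -0.39, limma adjusted p 0.181), and it was -0.52 without ND replicate 1. The gene passed without ND replicate 3 (limma adjusted p 0.0358).

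*Lipa*, lysosomal acid lipase, which frees cholesterol from lipoprotein esters, was at 41326, 44005 and 41811 in ND and 44739, 51218 and 55661 in HFD. All HFD values lay above ND, although HFD replicate 1 only just did so. The log2 fold change was 0.25 (SE 0.09, interval 0.04 to 0.46, limma adjusted p 0.396), with 0.18 to 0.33 without 1 library. The unadjusted p was 0.0246, and it rose to 0.0727 when ND replicate 1 was left out, to 0.0751 when HFD replicate 2 was and to 0.0866 when HFD replicate 3 was. *Soat1*, which esterifies cholesterol for storage, was also higher in each HFD library, at 17392, 17359 and 17556 in ND and 18373, 19793 and 17962 in HFD (log2 fold change 0.10, interval -0.05 to 0.25). After quantile normalization the value of *Lipa* was 0.11 (unadjusted p 0.274, limma adjusted p 0.735). For neither gene did that separation of the diets outlast quantile normalization, where no member had all HFD values above all ND values.

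The NPC proteins hand cholesterol from the lysosome lumen to its membrane. *Npc2*, the soluble carrier, was at 19141, 18004 and 18304 in ND and 17915, 17029 and 16333 in HFD, with no overlap but a log2 fold change of only -0.11 (interval -0.26 to 0.04). *Npc1*, the membrane partner, was at 8657, 8729 and 8074 in ND and 8145, 8507 and 8986 in HFD (log2 fold change 0.0098, interval -0.14 to 0.16).

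Among the 6 regulators, *Srebf2* and *Insig1* were lower at an unadjusted p under 0.05 and the other 4 did not reach that p. Of all genes, 5.18% were lower at that p. *Insig1* (chr5:28071363-28078662) encodes the sterol-sensitive retention protein, and its own transcription follows SREBP activity. It was at 1519, 1123 and 1079 in ND and 853, 774 and 780.0 in HFD. The HFD libraries were tightly grouped below all ND libraries, with a log2 fold change of -0.61 (SE 0.12, interval -0.88 to -0.34, limma adjusted p 0.184). It was -0.46 without ND replicate 1 and passed without ND replicate 3 (-0.70, limma adjusted p 0.0253). *Srebf2* (chr15:82147181-82205379), the gene of the factor itself, was at 3440.4, 2574 and 2770.4 in ND and 2313, 2131 and 2219 in HFD. Again no value overlapped, and the log2 fold change was -0.39 (SE 0.10, interval -0.61 to -0.17, limma adjusted p 0.275), or -0.27 without ND replicate 1.

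*Insig2*, the isoform not induced by SREBP, was at 479, 477 and 485 in ND and 479, 509 and 523 in HFD, a log2 fold change of 0.07 (interval -0.10 to 0.23). *Scap*, the escort and sterol sensor, had 0.06 (interval -0.12 to 0.23). The proteases that cut the precursor, *Mbtps1* and *Mbtps2*, had -0.07 (interval -0.20 to 0.07) and 0.03 (interval -0.12 to 0.19). Exons of *Mbtps2* overlap *Yy2* on the same strand over 2867 of 10105 exon bases, so its values are uncertain. *Mbtps1* was at 2003, 1871 and 1878 in ND and 1863, 1772 and 1844 in HFD, so its diets did not overlap although the interval included 0. The difference between *Insig1* and *Insig2* was not itself tested.

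**Figure D3:**
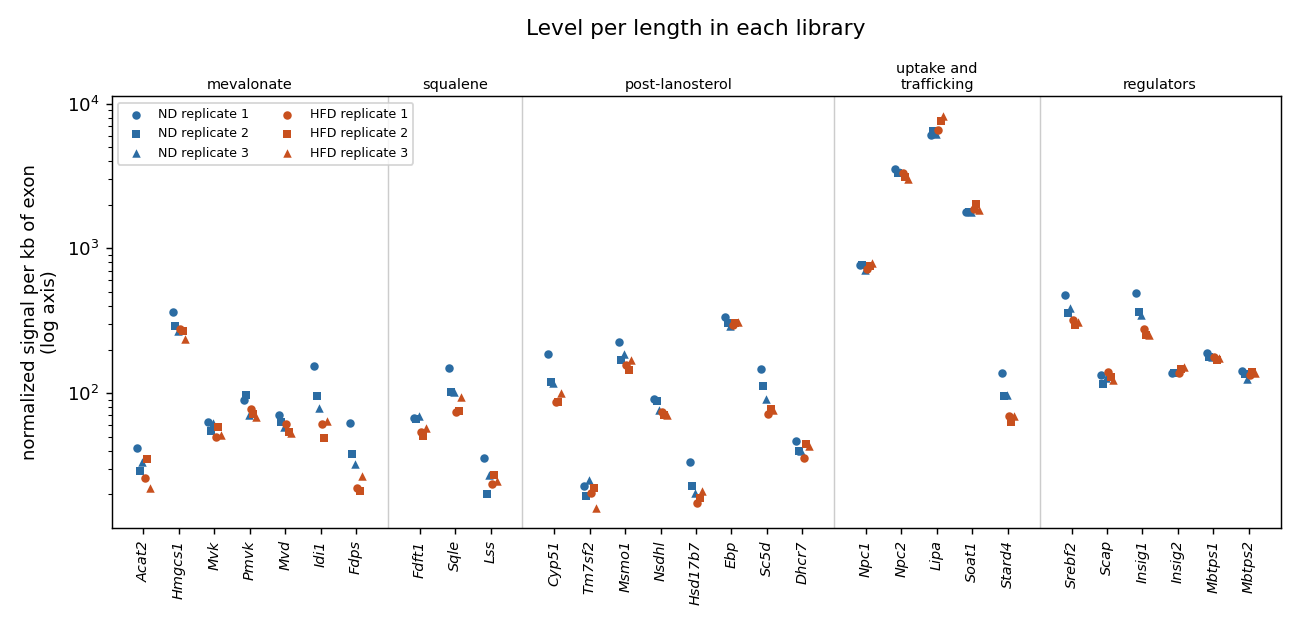
Each point is the normalized signal of 1 gene in 1 library per kb of its annotated exons (vertical axis, logarithmic), with the genes ordered by step; colours and shapes mark diet and replicate. The lysosomal and storage genes *Lipa*, *Npc2*, *Soat1* and *Npc1* stand above all synthesis enzymes and regulators, and *Tm7sf2* and *Hsd17b7* are lowest.

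Per length, the genes spanned a wide range. Dividing the normalized signal by the kb of annotated exon, the ND means were 6251 for *Lipa*, 3399 for *Npc2*, 1781 for *Soat1* and 749.9 for *Npc1*, followed by *Srebf2* (408), *Insig1* (401), *Ebp* (309.8) and *Hmgcs1* (307). The 18 enzymes lay between 22.3 (*Tm7sf2*) and 309.8 (*Ebp*). In HFD *Hsd17b7* (19.1) lay beside *Tm7sf2* (19.5). *Stard4*, at 109.8, ranked with the enzymes and not with the lysosomal genes. Exons of all transcripts were joined for this length, which lowers the value of genes with many annotated variants such as *Lss*.

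**Figure D4:**
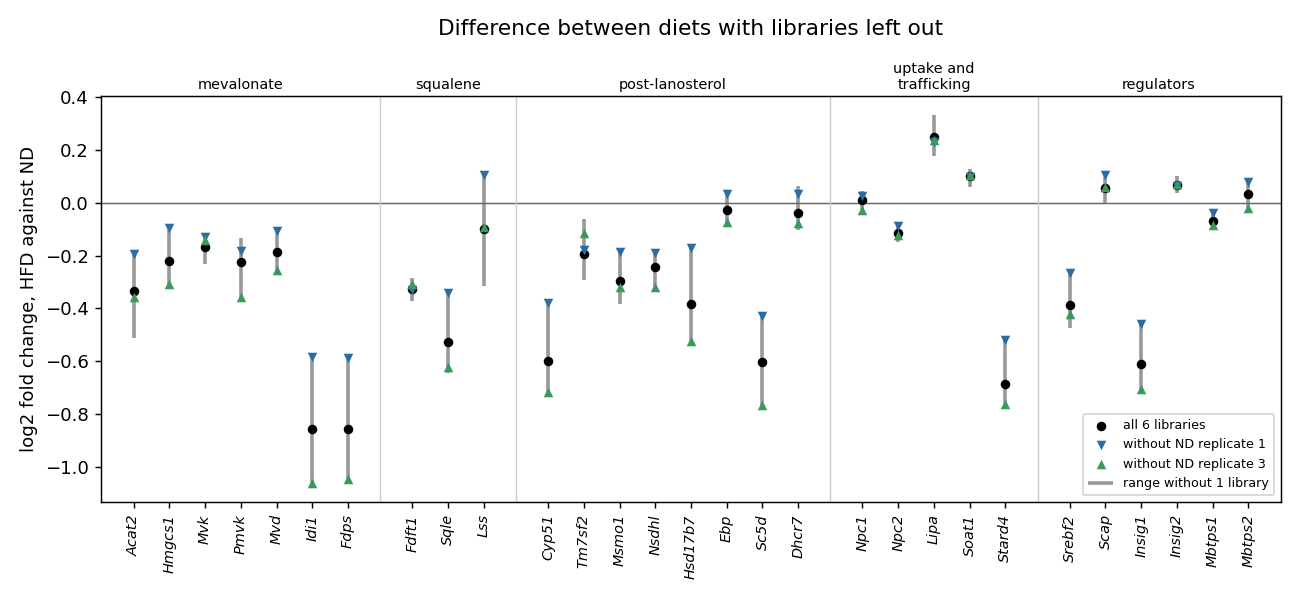
Log2 fold change of each gene (HFD against ND, vertical axis) with all 6 libraries (black), without ND replicate 1 (blue) and without ND replicate 3 (green); grey bars span the 6 fits that leave out 1 library. For *Idi1* the value moves from -0.86 to -0.58 without ND replicate 1 and to -1.06 without ND replicate 3, and for *Fdft1* the bar is short, from -0.37 to -0.28.

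Leaving out ND replicate 1 and leaving out ND replicate 3 shifted the log2 fold change in opposite directions for 24 of the 29 genes. The shifts went the same way for *Mvk*, *Lss*, *Tm7sf2*, *Lipa* and *Scap*. Deviations of the ND libraries from their own mean cancel out, so opposite shifts are common for any gene. The share over all genes was not counted, so whether the count is particular to these genes was not tested. Without ND replicate 3, *Idi1* was -1.06, *Fdps* -1.05 and *Sc5d* -0.77, and *Idi1*, *Sc5d*, *Stard4* and *Insig1* passed (limma adjusted p from 0.0191 to 0.0358), 4 of 29 genes against a background of 0.537% called lower. With libraries weighted by how well they fit (limma array weights, 3.09 for HFD replicate 2, 1.91 for ND replicate 1, 0.891 for ND replicate 2 and 0.441 for ND replicate 3), 10 of 29 genes (34.5%) passed, all lower in HFD, against 4.02% of all genes. At an unadjusted p under 0.05 that fit had 17 members lower, against 13.9% of all genes, and 2 higher, against 13.7%. ND replicate 1, the highest library for most enzymes, thus had the largest weight of the ND libraries. HFD replicate 2, with the largest weight of all, was the lowest library for 9 of the 29 genes, against 14.9% of all genes. The weights of HFD replicates 1 and 3 were 0.778 and 0.556. The 10 genes that passed with these weights were *Msmo1* and the 9 genes that kept an unadjusted p under 0.05 without any 1 library. Without HFD replicate 2 the smallest adjusted p of the 29 genes was 0.860.

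Other genes of the pathway were drawn from 5 lists, 47 of 54 of them in the table. At an unadjusted p under 0.05, 2 were lower in HFD (4.26%, against 5.18% of all genes) and 4 higher (8.51%, against 5.4%), shares near the background, and the median log2 fold change of the 47 was 0.01. Most belonged to branches or machinery around the pathway. None of the 11 genes of acetyl-CoA supply and the isoprenoid branches reached that p, among them *Acly*, the citrate lyase, at -0.03 (interval -0.18 to 0.12). Of 15 genes for sterol-regulated protein degradation and SREBP cofactors, 3 were higher, against 5.4% of all genes, and none lower. *Marchf6*, a ubiquitin ligase that removes squalene epoxidase, was at 4330, 4225 and 4735 in ND and 4875, 5266 and 5253 in HFD, with no overlap (log2 fold change 0.21, limma adjusted p 0.319). *Nfya*, a subunit of NF-Y, had 0.16 (limma adjusted p 0.392, no overlap), and *Nfyc*, named after its value was seen, 0.30 with overlapping diets.

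Of the 6 other sterol enzymes and electron donors in the table, 1 was lower and 1 higher at an unadjusted p under 0.05. *Lbr*, the reductase of the nuclear envelope that shares its sterol step with *Tm7sf2*, was at 1163, 1076 and 1053 in ND and 931, 934 and 933 in HFD (log2 fold change -0.23, interval -0.38 to -0.09, limma adjusted p 0.286). The electron donor *Cyb5a* was higher in every HFD library (0.28, limma adjusted p 0.286). Of 13 genes of sterol transfer, uptake and esterification in the table only *Scarb1*, the scavenger receptor for high-density lipoprotein, reached an unadjusted p under 0.05 (-0.22, limma adjusted p 0.439, no overlap). Neither of the 2 oxysterol genes in the table, *Cyp27a1* (-0.27, interval -0.64 to 0.11) and *Hsd3b7* (0.14, interval -0.02 to 0.30), did so.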

How the data were processed

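RNA was measured in macrophage cultures by stranded total-RNA sequencing after ribosomal RNA removal (100 ng of RNA, single reads of 75 bases), per the labels' protocols. The submitters' processing notes name STAR, Partek and the genome build mm10, with no roles. The authors deposited a normalized gene signal. From the values, it is an estimated count divided by a size factor per library: 57.0% to 58.4% of values between 5 and 1000 were whole multiples of the value of 1 read (within 0.02 of a read), so the values are not whole reads and a count test was not used. Annotation and filters are not given in the sources used here. The column prefix NC was read as normal diet, and column numbers as replicates.

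Each gene's log2(signal + 1) was set against diet (3 libraries each) in limma 3.58.1 (R 4.3.3, mean-variance trend, two-sided), adjusting over all 13232 genes. Fold changes are on this scale, which understates low genes. SE and intervals (95%) are limma's. No filter on low values was applied. The procedure was tested on simulated libraries. Lengths, positions and copies (at least 95% identity over 75 bases) came from GENCODE M21, on the same build as mm10. Depth limits precision: counting error was 0.531% to 12.7% of a member's lowest value, for counting only. The members and lists were chosen with earlier results of these data known. A gene of the other pathway lists is not reported here and was left out of their counts. All members are named, and other pathway genes where p was under 0.05 without overlap. Alternatives were pseudocounts of 0.1 and 10, filters at 10 in every library and at a mean of 100, quantile and total scaling, no trend, array weights, a replicate block and leaving out each library.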

Additional observations from a re-analysis of the deposited data

How the results depend on the processing

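No member passed an adjusted p of 0.05 with all 6 libraries, and none did under the other pseudocounts, filters, scalings or limma without the trend. Of 433 values of the 29 genes over 15 alternatives, 408 gave the same direction and call, 15 newly passed and 10 changed sign. The median of the enzyme steps kept its sign in each alternative.

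The count of genes past an adjusted p of 0.05 was 1133 with array weights and 31 with the replicate block, and ran from 0 to 233 without 1 library. *Insig1* was the 1 member that passed with the replicate block (limma adjusted p 0.0477). Deviations from the diet means correlated at 0.0891, -0.112 and 0.0273 between libraries of equal number. The labels do not say whether such libraries share anything but the number. With array weights 17 members were lower and 2 higher at an unadjusted p under 0.05, against 13.9% and 13.7% of all genes. After quantile normalization 0 were higher at that p and 0 had all HFD values above ND, and without 1 library the count higher ran from 0 to 1.

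The median of the uptake and trafficking step (0.0098), which is the value of *Npc1*, was -0.037 after quantile normalization, -0.0026 with total scaling and -0.016 with array weights, and ran from -0.027 to 0.044 without 1 library, as did *Npc1*. The regulators' median (-0.018) was -0.057 with array weights and ran from -0.051 to 0.013 without 1 library. Across those fits *Lss* ran from -0.31 to 0.11, *Ebp* from -0.072 to 0.033, *Dhcr7* from -0.10 to 0.064 and *Mbtps2* from -0.018 to 0.078. The cause of these changes was not tested. Depth leaves *Acat2*, *Tm7sf2*, *Hsd17b7*, *Mvd* and *Fdps* least precise.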
